A study of Caenorhabditis elegans with 2 samples.

Results

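Peaks of FKH-10 binding whose summit lay within 500 bp of the start of a protein-coding gene were examined in Caenorhabditis elegans larvae of the third stage (L3). The start was the annotated 5′ end of the gene record in Ensembl release 115 on WBcel235, and all 19973 protein-coding genes of the 6 nuclear chromosomes were used. Of the 2005 peaks in the thresholded list on build ce11, 646 (32.2%, 95% Wilson interval 30.2 to 34.3) met this rule. The share describes the rule and was not tested. The sequence within 500 bp of a start made up 18.8% of the genome, and it held 34.3 summits per Mb against 16.7 per Mb elsewhere.

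FKH-10 is a member of the forkhead family of transcription factors, which bind DNA through a winged helix domain and are best known for sites built around the core RTAAAYA. A promoter lies directly upstream of the position where transcription begins, and neighbouring genes transcribed away from each other can share the sequence between their starts. In C. elegans many transcripts are trans-spliced close to their coding sequence, so an annotated 5′ end often lies downstream of the place where RNA polymerase starts.

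Chromatin immunoprecipitation with sequencing (ChIP-seq) was performed on whole L3 animals of mixed sex from strain OP337, whose background allele is unc119(ed3). Its transgene wgIs377 holds fkh-10::TY1 EGFP FLAG, with the tag at the C-terminus of FKH-10, and unc119. Both libraries, biological replicates 1 and 2, came from this strain after sonication. There was 1 group, so no contrast between conditions could be made, and peaks rather than animals were the units of every test. Neighbouring peaks are not independent, and p-values describe the spread of peaks over sequence, not the spread between animals. All cell types of the larva are mixed in such a sample, the tagged protein comes from a transgene, and the control alignment was not analysed here. Read totals were not analysed here, and the depth behind the signal values is therefore unknown.

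The authors' caller gave each peak a signal value, between 28.2 and 182 over the thresholded peaks, with a median of 41.8. All 2005 thresholded peaks were also found, with the same summit and signal, as the strongest 2005 of the 30000 pooled regions. The lists of replicates 1 and 2 held 30000 regions each, and values were compared only within a list. In 57 places a thresholded peak overlapped the peak before it. In 2 dense stretches summits stood close together, and results that rest on them are given with and without them. At the tagged gene itself, fkh-10, the nearest thresholded summit lay 31988 bp away, and at unc-119 it lay 820 bp from the start, so neither gene was among the members.

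The summit windows of the strongest members are shown because they carry the positions described here, each with 50 bases on both sides of the summit, on WBcel235. The windows come from chromosomes II, III, IV and V, and each choice below was made among members of chromosomes II to V and X. Capitals mark matches on either strand to TACACT or to 1 of the 12 motifs searched, and windows at a single start read in the direction of the gene. The 3 strongest upstream of a single start were those of rpl-3, a ribosomal protein of the large subunit, cdc-48.1, an AAA ATPase that unfolds ubiquitinated proteins, and hsp-1, a chaperone of the Hsp70 family.
rpl-3 (chrIII:3867531-3867631, plus strand): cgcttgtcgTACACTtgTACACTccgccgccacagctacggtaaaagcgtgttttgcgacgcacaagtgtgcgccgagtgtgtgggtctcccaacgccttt
cdc-48.1 (chrII:10563510-10563610, minus strand): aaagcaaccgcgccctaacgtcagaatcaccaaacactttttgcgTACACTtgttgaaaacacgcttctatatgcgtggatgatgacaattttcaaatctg
hsp-1 (chrIV:17278517-17278617, plus strand): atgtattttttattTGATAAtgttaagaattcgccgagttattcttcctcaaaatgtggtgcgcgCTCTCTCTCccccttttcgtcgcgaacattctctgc

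The 3 strongest windows between head-to-head starts all had a ribosomal protein gene on one side. They are printed on the plus strand, with the gene whose start was nearer to the summit named before its partner.
Y17G9B.5 and rpl-20 (chrIV:4750013-4750113, plus strand): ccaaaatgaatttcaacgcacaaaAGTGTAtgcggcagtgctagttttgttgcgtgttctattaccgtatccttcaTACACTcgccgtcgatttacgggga
rpl-15 and K11H12.8 (chrIV:654883-654983, plus strand): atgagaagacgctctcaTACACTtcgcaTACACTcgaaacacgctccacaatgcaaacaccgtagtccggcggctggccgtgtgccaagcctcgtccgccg
rpl-12 and lin-54 (chrIV:13240627-13240727, plus strand): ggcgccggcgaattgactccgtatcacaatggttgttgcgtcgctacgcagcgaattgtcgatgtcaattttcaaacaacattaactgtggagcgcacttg

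The hexamer TACACT, on either strand, was noticed in the strongest windows after they were seen, so its counts are a description with no test. It stood in the windows of 6 of the 15 strongest members. Over all members it stood in 35 of 646 windows (5.42%), over the other peaks in 53 of 1359 (3.90%), and over windows at the same distances from starts without a peak in 3.70%. At ribosomal protein genes 6 of 41 member windows (14.6%) held it, and none of the 69 windows downstream of a single start did.

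The next windows show the heptamer GAGACGC, the motif of the 12 with the highest ratio of its share among members to its share at starts without a peak. They are the 4 strongest that held it among members of chromosomes II to V and X. The names ntl-11, ndub-8 and sec-61.G came from this choice, which was made after values were seen.
drr-2 and set-16 (chrIII:13643678-13643778, plus strand): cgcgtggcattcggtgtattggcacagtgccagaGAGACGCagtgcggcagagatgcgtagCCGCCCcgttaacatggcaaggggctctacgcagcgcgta
ntl-11 (chrIV:15471563-15471663, minus strand): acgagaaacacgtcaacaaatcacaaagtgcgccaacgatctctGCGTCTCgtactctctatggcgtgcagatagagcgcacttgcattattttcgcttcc
ndub-8 and cup-14 (chrII:13872635-13872735, plus strand): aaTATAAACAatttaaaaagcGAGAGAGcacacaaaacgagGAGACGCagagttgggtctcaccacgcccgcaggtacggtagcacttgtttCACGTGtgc
sec-61.G (chrV:10897317-10897417, minus strand): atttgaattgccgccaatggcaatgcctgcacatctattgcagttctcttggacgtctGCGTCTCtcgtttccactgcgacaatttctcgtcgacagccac

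The 2 strongest windows downstream of a single start held no match to TACACT or to any of the 12 motifs, and C15C8.5 was likewise named after values were seen.
B0361.4 (chrIII:7259071-7259171, plus strand): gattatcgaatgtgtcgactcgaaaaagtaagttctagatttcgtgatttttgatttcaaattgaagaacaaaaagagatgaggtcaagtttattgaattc
C15C8.5 (chrV:12748037-12748137, plus strand): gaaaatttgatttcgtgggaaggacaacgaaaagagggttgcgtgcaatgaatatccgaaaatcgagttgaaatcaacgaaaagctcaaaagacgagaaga

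Most members lay upstream of a gene. Of the 646, 475 had a single start within 500 bp and 171 had 2 or 3. Upstream of a single start lay 406 members (62.8%), and downstream of a single start lay 69 (10.7%). Between head-to-head starts, with a gene on the minus strand to the left and a gene on the plus strand to the right, lay 145 (22.4%), and 26 (4.02%) had several starts in another arrangement. Together the members lay at the starts of 810 genes, or 4.06% of all 19973, of which 13 had 2 or more summits.

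Among members with a single start, upstream sequence held 48.5 summits per Mb and downstream sequence 7.41 per Mb. The ratio of densities was 6.55 (95% interval 5.07 to 8.59, exact binomial test, two-sided, p = 1.97e-67, over 406 and 69 peaks). Much of the downstream sequence is coding, and coding exons downstream of a single start held 2.39 summits per Mb. With coding exons left out on both sides, an alternative added after the data were seen, the ratio was 4.16 (3.15 to 5.58). The side of the start was not part of the rule, which is symmetric about it.

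The density was highest some distance before the annotated start. It was 28.8 summits per Mb from 500 to 400 bp upstream, 42.3 from 400 to 300 bp, 67.1 from 300 to 200 bp, 63.7 from 200 to 100 bp and 39.9 in the last 100 bp. Downstream it was 11.6 per Mb in the first 100 bp and between 4.74 and 8.20 per Mb in each 100 bp after that. The median distance of the 406 upstream summits was 222.5 bp, with quartiles at 132 and 316 bp. Downstream summits lay at a median of 182 bp, with quartiles at 80 and 383 bp.

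**Figure D1:**
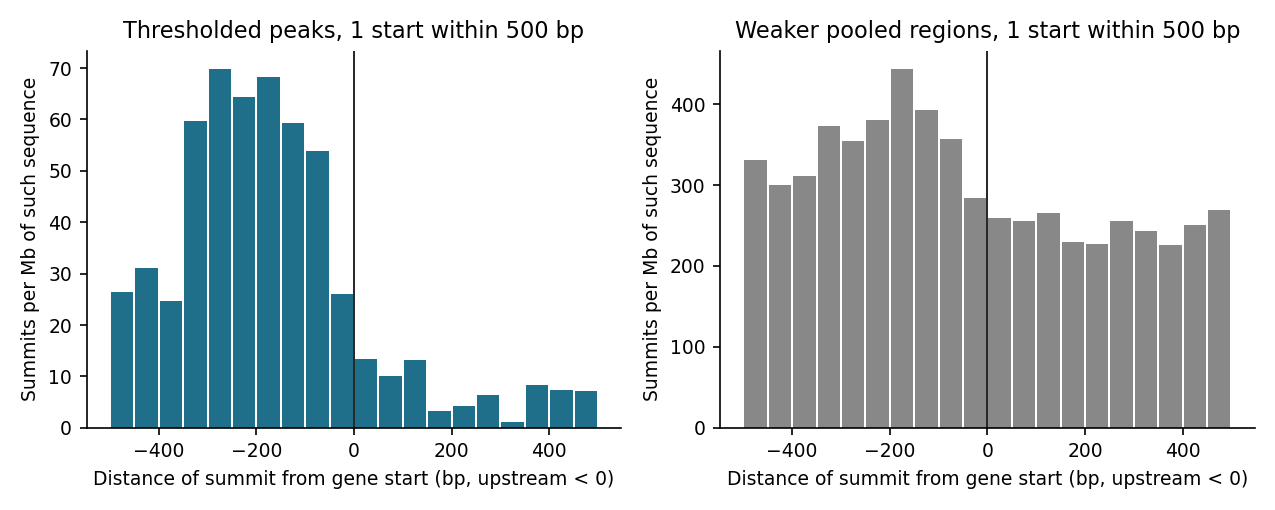
Summits per Mb of sequence that has 1 gene start within 500 bp (vertical axis, a separate scale in each panel) against the signed distance of the summit from that start in bins of 50 bp, for thresholded peaks (left) and for pooled regions that overlap no thresholded peak (right). The bars of thresholded peaks stand highest from 350 to 50 bp upstream and drop at the start, and those of weaker regions differ less between the sides.

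The 15 strongest members were upstream of at least 1 gene in every case, 10 at a single start and 5 between head-to-head starts. They included 5 ribosomal protein genes, and the strongest of all was at rpl-3, 273 bp upstream of its start. Its signal was 182 in the thresholded list, 102 in the list of replicate 1 (rank 3) and 84.3 in that of replicate 2 (rank 1). The next, 153 bp upstream of cdc-48.1, had 173, with 91.2 in replicate 1 (rank 8) and 79.2 in replicate 2 (rank 2). Both peaks were thus among the 10 strongest regions of each replicate.

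At hsp-1 the summit lay 392 bp upstream, and the signal was 147, with 92.2 in replicate 1 (rank 7) and 56.98 in replicate 2 (rank 14). At tasp-1 it lay 60 bp upstream with a signal of 141, or 86.6 in replicate 1 (rank 10) and 54.3 in replicate 2 (rank 17). For eef-1A.2, a translation elongation factor, it lay 438 bp upstream on the X chromosome with a signal of 130.1, or 90.6 in replicate 1 (rank 9) and 44.8 in replicate 2 (rank 49). These 3 peaks ranked higher in replicate 1 than in replicate 2.

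The ribosomal protein gene rpl-35 had its summit 454 bp upstream with a signal of 119.5, or 64.2 in replicate 1 (rank 33) and 51.6 in replicate 2 (rank 23). The histone gene his-37 followed at 81 bp with a signal of 117, or 67.3 (rank 22) and 48.5 (rank 33). At iff-2, which encodes the translation factor eIF5A, the summit lay 79 bp upstream with a signal of 110.5, or 66.3 (rank 28) and 41.5 (rank 68). The remaining single upstream peaks of the 15 were those of K05C4.5, at 486 bp with a signal of 105, and C47E8.4, at 329 bp with a signal of 105. The K05C4.5 peak lay inside the dense stretch of chromosome I, and its summit in replicate 1 was 715 bp from the start.

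Sequence between head-to-head starts held the highest density. It covered 0.489 Mb and held 297 summits per Mb, against 48.5 per Mb upstream of a single start, a ratio of 6.11 (95% interval 5.02 to 7.40, exact binomial test, two-sided, p = 1.47e-56, over 145 and 406 peaks). Within sequence between genes only, an alternative added after the data were seen, the ratio was 5.54 (4.54 to 6.73). At matched distances from the nearer start, also added after the data were seen, it was 6.17 (4.16 to 9.09) within 100 bp, 6.01 (4.28 to 8.37) from 100 to 200 bp and 5.95 (4.19 to 8.27) from 200 to 500 bp. The Benjamini-Hochberg adjusted p of these 3 exact binomial tests ran from 3.77e-21 to 8.61e-18. A base between such starts counts for 2 genes, so a ratio of 2 would be reached with the same density per start.

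The 145 divergent peaks lay in 145 different gene pairs, whose starts were 74 to 900 bp apart with a median of 444 bp. Of all 145 summits, 106 (73.1%) lay between 25% and 75% of the way from one start to the other, but in gaps over 500 bp the rule itself keeps summits away from the ends. In the 89 gaps of up to 500 bp, where it does not, 56 summits (62.9%, Wilson interval 52.5 to 72.2) lay there against 50% for an even spread (exact binomial test added after the data were seen, two-sided, p = 0.0192). Counted by gene, 218 of the 1848 genes with a head-to-head partner within 500 bp had a summit at their start (11.8%). The share was 8.75% of 1691 genes with the partner at 500 to 1000 bp and 2.70% of the 16434 others.

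Of the 5 strongest divergent peaks, the highest lay 285 bp from rpl-20 and 177 bp from Y17G9B.5, with a signal of 156, or 93.6 in replicate 1 (rank 6) and 63.8 in replicate 2 (rank 8). The peak of rpl-15 and K11H12.8 lay 357 and 457 bp from their starts and had 125.7, or 84.3 (rank 13) and 40.1 (rank 83). The one at rpl-12 and lin-54 had 119.5, or 60.2 (rank 51) and 61.0 (rank 11). Its summit was 26 bp from rpl-12, which encodes a ribosomal protein, and 367 bp from lin-54, which encodes the DNA-binding subunit of the DREAM complex.

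The peak at drr-2 and set-16, a histone methyltransferase gene of the MLL family, was 158 and 188 bp from the starts with a signal of 108, or 67.2 (rank 23) and 39.2 (rank 95). That of cct-8, a subunit of the cytosolic chaperonin, and Y55F3AR.2 was 406 and 215 bp away with 103, or 66.0 (rank 29) and 39.0 (rank 97). A shared peak cannot be assigned to either gene from position. In each of these 5 pairs except rpl-12 and lin-54 the peak ranked higher in replicate 1 than in replicate 2.

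Downstream peaks were few and lay mostly inside genes. Of the 69, 33 were in introns, 22 in 5′ UTRs, 11 in coding exons, 1 in a 3′ UTR and 2 past the end of a short gene. Of the 406 single upstream peaks, 374 (92.1%) lay between protein-coding genes and 23 in an intron of another gene or transcript. Over all members 527 (81.6%) lay between genes against 785 of the 1359 other peaks (57.8%), and this difference was not tested.

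The 5 strongest downstream peaks were all on chromosome I. At K05C4.8 the summit lay 146 bp downstream in an intron, with a signal of 103, or 48.6 in replicate 1 (rank 138) and 47.0 in replicate 2 (rank 40). The peak of F11A6.16 lay 437 bp downstream, past the end of the gene, with 97.6, or 61.6 (rank 42) and 38.8 (rank 99). At ercc-1, a subunit of a DNA repair endonuclease, it lay 8 bp downstream in the 5′ UTR with 96.9, or 51.1 (rank 113) and 44.5 (rank 50), and its summit in replicate 2 was 12 bp upstream.

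The peak assigned to K05C4.9 lay 250 bp downstream in a coding exon with a signal of 89.6. The regions that overlapped it in replicates 1 and 2 had their summits 1611 and 3575 bp from that start. At ints-4, a subunit of the Integrator complex, the summit lay 26 bp downstream in the 5′ UTR with 78.9, or 51.6 (rank 107) and 23.2 (rank 555). K05C4.8 and K05C4.9 both lie in a dense stretch of chromosome I (14719505 to 14769125), which held 54 summits, 23 members and 12 of the 69 downstream peaks. The other dense stretch, on the X chromosome (16344441 to 16378299), held 25 summits, 3 members and 2 downstream peaks. Without these stretches the ratio of upstream to downstream density was 8.02.

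The members nearest to a start all lay between head-to-head starts. The summit was 1 bp from atp-1, which encodes a subunit of ATP synthase, 2 bp from ZK973.8 and 3 bp from snrp-40.1, with signals of 50.03, 37.9 and 30.5. Just inside the limit were the peaks of B0432.10 at 500 bp downstream (29.7), F27B10.1 at 499 bp upstream (31.6) and epn-1 at 496 bp upstream (72.4). Just outside it were those of K05C4.5 at 503 bp downstream (62.5), grk-2 at 507 bp upstream (60.2) and K09E9.4 at 508 bp upstream (36.4).

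The replicates placed most summits on the same side. Of the 646 members, 638 overlapped a region in both full replicate lists, and the median gap between the summits of replicates 1 and 2 was 39 bp. The thresholded list was made from both replicates, and replicate regions were picked by overlap with the member. Presence in both lists, small gaps and a shared side are thus in part fixed by that choice. The summits of both replicates were on the same side of the nearest start in 587 of 638 (92.0%). By class this held for 381 of 404 single upstream peaks, 135 of 142 divergent peaks and 54 of 68 downstream peaks. Of the 381, 377 were upstream in both replicates and 4 were downstream in both. The gap was 28 bp for divergent, 39.5 bp for single upstream and 60 bp for downstream peaks (medians).

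**Figure D2:**
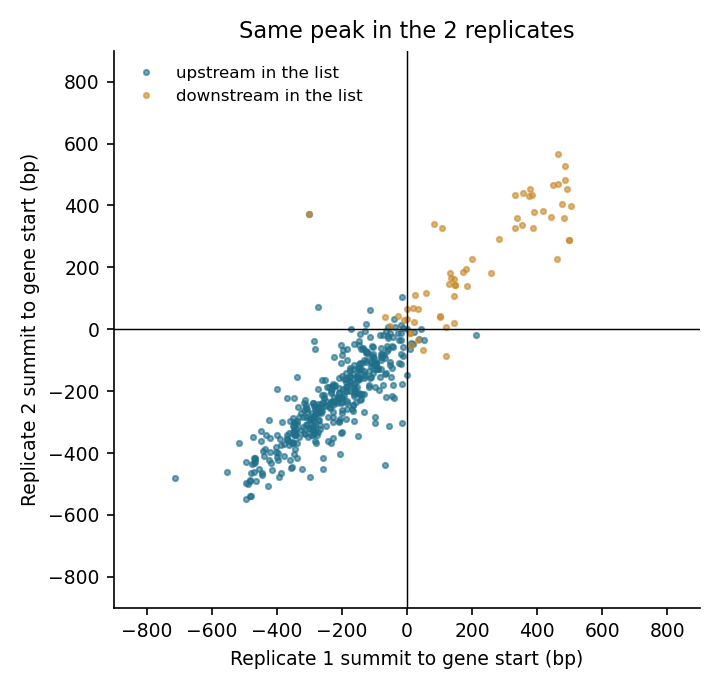
Signed distance of the summit from the nearest gene start (bp, upstream below 0) in replicate 1 (horizontal) and replicate 2 (vertical), 1 point for each member with a single start and a region in both replicate lists, coloured by its side in the thresholded list. Points lie near the diagonal, and 13 of the 472 fall outside the axes, which end at 900 bp.

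Fewer members than other peaks were covered by strong regions of both replicates, a call that ended under 6 alternatives. The strongest 2005 regions of replicate 1 overlapped 82.0% of members and 84.2% of other peaks. Those of replicate 2 overlapped 72.9% of members and 76.1% of other peaks. Neither replicate alone passed the test (Fisher's exact tests, adjusted p = 0.247 for each). Regions of both covered 371 of 646 members (57.4%, Wilson interval 53.6 to 61.2) and 850 of 1359 other peaks (62.5%), a difference of -5.12 percentage points (Fisher's exact test, two-sided, p = 0.0312). With the strongest 4000 regions of each replicate the difference was 1.01 points (Fisher's exact test, p = 0.571).

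The signal of members did not differ from that of other peaks past the threshold. Above the list's median signal lay 323 of 646 members (50%, Wilson interval 46.2 to 53.8) and 679 of 1359 other peaks (49.96%, 47.3 to 52.6), with p = 1 by Fisher's exact test, two-sided. Median signals were 42.7 for single upstream, 41.7 for divergent and 40.6 for downstream peaks. Their shares above the list's median did not differ past the threshold (Fisher's exact tests, adjusted p = 1 for both comparisons with single upstream peaks). Of the 20 strongest peaks in the list 9 were members, and of the 100 strongest 31.

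Position and rank were related across the pooled list, whose weaker regions were deposited as peaks and background for the IDR step. Of 27700 pooled regions that overlapped no thresholded peak, 5784 (20.9%) lay within 500 bp of a start. Among those with a single start, 2953 of 5264 (56.1%) were upstream, against 85.5% of 475 in the thresholded list, a difference of 29.4 percentage points (Fisher's exact test, two-sided, p = 8.80e-40). Their ratio of upstream to downstream density was 1.42 (1.35 to 1.503), and that of divergent to single upstream was 1.98 (1.77 to 2.22).

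By rank, the upstream share of regions with a single start was 84.3% in the strongest 500, 88.5% in the next 500 and 84.6% from rank 1000 to 2000. It was 72.3% from 2000 to 5000, 59.7% from 5000 to 10000, 52.4% from 10000 to 20000 and 51.9% in the last 10000. The share of all regions that lay between head-to-head starts was 6.8%, 7.4%, 7.4%, 4.63%, 1.56%, 0.69% and 0.61% in the same order. The first 3 ranges cover almost exactly the thresholded list.

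**Figure D3:**
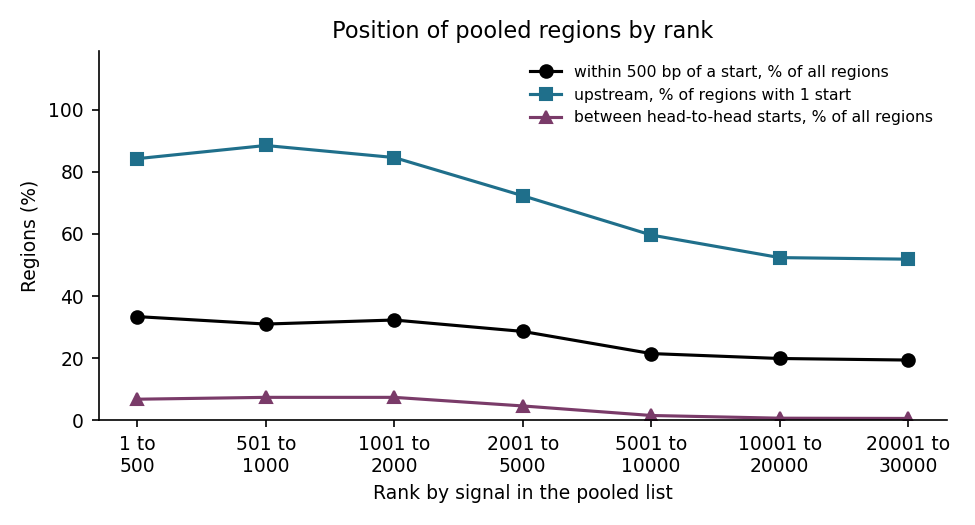
Share of pooled regions (percent, vertical axis) in 7 ranges of rank by signal (horizontal axis) that lay within 500 bp of a gene start, that lay upstream among those with a single start, and that lay between head-to-head starts. The upstream share stays between 84.3% and 88.5% over the first 3 ranges and falls to 51.9% in the last.

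Chromosomes differed in how many members their start-near sequence held. Chromosome I had 160 members at 59.8 per Mb of sequence within 500 bp of starts (exact test, adjusted p = 9.24e-12) and chromosome III had 113 at 46.3 per Mb (adjusted p = 0.00200). Chromosome V had 103 at 21.7 per Mb (exact test, adjusted p = 4.97e-08) and chromosome II had 82 at 25.4 per Mb (adjusted p = 0.00361). Chromosome IV (97, 31.5 per Mb) and X (91, 34.2 per Mb) did not pass the test. These were exact binomial tests, two-sided, with Benjamini-Hochberg adjustment over the 6 chromosomes. The call for chromosome II ended without replicate 1 (exact test, adjusted p = 0.296) and in the stronger 50% of peaks (adjusted p = 0.209), and that for chromosome I held without its dense stretch (adjusted p = 5.68e-07).

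The X chromosome held 14.1% of members and 27.1% of the other peaks, a difference of -12.99 percentage points (Fisher's exact test, two-sided, p = 3.23e-11). Per Mb of sequence near starts, however, X and the autosomes had a ratio of 0.996 (0.789 to 1.25, exact binomial test, two-sided, p = 1). The lower share among members thus stood beside many X peaks far from starts, 368 of 459. Only 4 of the 91 X members lay between head-to-head starts, of which X has 23193 bp, and 75 lay upstream of a single start.

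**Figure D4:**
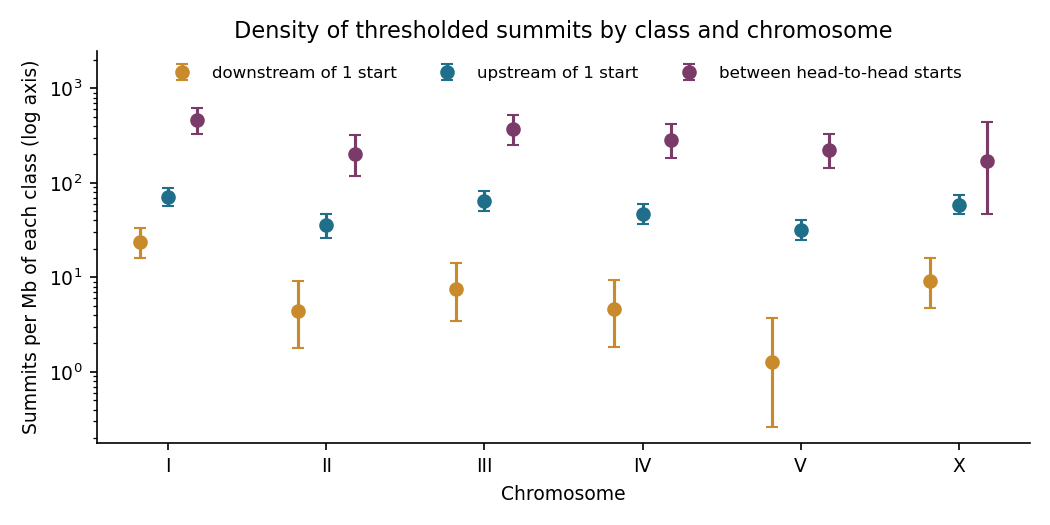
Thresholded summits per Mb of each class of sequence (vertical log axis) on each chromosome (horizontal axis), with exact 95% Poisson intervals that cover counting error only. On every chromosome the density between head-to-head starts is above that upstream of 1 start, and that in turn is above the density downstream.

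Of 12 short motifs 2 differed between members and other peaks past the threshold, AAGAAGA and GGGCGG. The motifs were chosen with earlier results of these data known, so their p-values and shares describe these peaks only. A share above that at starts without a peak is therefore no independent support for a motif. Each motif, of 6 or 7 bases, was searched on both strands in windows of 50 bp on each side of the summit and, at the same distances, at 19158 starts without a thresholded summit within 500 bp. The windows differed in base composition. Their GC content was 45.4 ± 9.13% (SD over 646 windows) for members and 42.7 ± 8.34% (SD over 1359) for other peaks, and it averaged 34.5% at starts without a peak. The part of base composition in these shares was not tested.

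The heptamer GAGACGC stood in 68 member windows (10.5%), 7.73% of other peak windows (Fisher's exact test, adjusted p = 0.155) and 1.18% of windows at starts without a peak. The difference of 2.80 points between members and other peaks was 0.633 points without replicate 2 and, in an alternative added after the data were seen, 1.37 points on the autosomes only. In windows of 100 bp on each side it was 3.94 points and passed the test (Fisher's exact test, adjusted p = 0.0276). CTCTCTC, a run of alternating pyrimidines that overlaps itself and reads GAGAGAG on the other strand, stood in 9.60%, 12.4% (Fisher's exact test, adjusted p = 0.173) and 1.94%. Both shares at members were above those at starts without a peak, for which no test was made. CTCTCTC did pass against other peaks without replicate 2 (difference -5.29 points, Fisher's exact test, adjusted p = 0.00327) and, in an alternative added after the data were seen, on the autosomes only (-4.68 points, adjusted p = 0.0433).

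AAGAAGA stood in 58 member windows (8.98%) against 247 of the other peaks (18.2%), a difference of -9.20 points (Fisher's exact test, adjusted p = 4.70e-07), and in 4.34% at starts without a peak. On the autosomes alone the shares were 9.01% and 18.8%. Within the members it stood in 10.8% of windows upstream of a single start and in 2.76% of divergent windows. GGGCGG stood in 44 member windows (6.81%), 3.31% of other peaks (Fisher's exact test, adjusted p = 0.00405) and 2.27% of starts without a peak, and this call ended under 4 alternatives. Without replicate 1 the difference was 1.21 points (Fisher's exact test, adjusted p = 0.504). The adjusted p-values come from Fisher's exact tests, two-sided, with Benjamini-Hochberg adjustment over the 12 motifs.

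For 3 hexamers the share at members was below that at starts without a peak, where again no test was made. The promoter element TATAAA stood in 4.95% of member windows against 13.7% at such starts. TTTCAG, the consensus of a splice acceptor, stood in 8.36% against 18.8%, and TGATAA, a core bound by zinc finger factors of the ELT family, in 3.72% against 11.1%. Against other peaks these 3 did not pass Fisher's exact test (adjusted p = 0.997, 0.959 and 0.155). In windows of 100 bp on each side TTTCAG and TGATAA did pass, with differences of 6.40 and 3.5 points (Fisher's exact tests, adjusted p = 0.00254 and 0.0145). CACGTG, the palindromic E box, stood in 2.01% of member windows, 2.65% of other peaks and 1.83% of starts without a peak. Against other peaks it did not pass (difference -0.637 points, Fisher's exact test, adjusted p = 0.757), but without replicate 2 it did (-1.97 points, adjusted p = 0.0291).

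The 4 forms of the forkhead core were rare. GTAAACA stood in 1.55% of member windows against 1.52% at starts without a peak, ATAAACA in 1.86% against 3.09%, GTAAATA in 0.929% against 2.26% and ATAAATA in 1.70% against 6.36%. Against other peaks, at 1.25%, 1.25%, 1.32% and 1.84% in the same order, none passed (Fisher's exact tests, adjusted p from 0.636 to 1). In windows of 100 bp on each side, ATAAACA was more frequent at members than at other peaks (difference 2.13 points, Fisher's exact test, adjusted p = 0.0238). In windows of 50 bp on each side any of the 4 stood in 37 of 646 members (5.73%) and 74 of 1359 other peaks (5.45%). By class the count was 22 of 406 upstream, 7 of 145 divergent and 7 of 69 downstream. These letters are thus absent from most windows of 50 bp on each side, which says nothing of where the factor was bound.

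Orientation to the gene did not pass the test for any of the 11 motifs that are not palindromes (exact binomial tests, two-sided, smallest adjusted p = 0.268). CTCTCTC read in the direction of the gene in 29 of 44 windows and AAGAAGA in 18 of 53. The unadjusted p was 0.0488 and 0.0270 for these, the only 2 under 0.05.

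The genes at the members were counted by list. Over all protein-coding genes the share was 4.06%. Genes were counted whenever a summit lay within 500 bp of the start, so a divergent peak counts for both neighbours. The listed start was the nearest for 17 of 27 large subunit and 10 of 17 small subunit ribosomal genes with a summit. It was so for 16 of 20 respiratory chain, 8 of 11 translation factor and 6 of 17 chaperone genes. The counts were 6 of 8 for the mitochondrial ribosome, 4 of 7 for splicing factors and 3 of 5 for the vacuolar ATPase. All 3 proteasome and both synthetase genes had the nearest start. The lists were chosen with earlier results of these data known, so the counts describe the lists and carry no test. Some lists leave out genes of their kind, and those genes were not counted.

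Of the ribosomal protein genes, 27 of 49 of the large subunit and 17 of 31 of the small subunit had a summit, together 44 of 80 (55.0%). Their 41 peaks had signals from 29.4 to 182 with a median of 49.4, and 26 of them lay between head-to-head starts and 15 upstream of a single start. None lay downstream. A head-to-head start within 1000 bp was found at 47 of the 80 (58.8%) against 17.7% of all genes. Of these 47 genes 30 had a summit, where over all genes with such a neighbour the share was 10.3%. Of the other 33 genes 14 had one, where over all genes without such a neighbour the share was 2.70%. In the large subunit the strongest were rpl-3 and rpl-20, described above. In the small subunit they were rps-12, at 164 bp with a signal of 88.4, 48.4 in replicate 1 and 39.8 in replicate 2, and rps-28, at 445 bp with 82.6, 51.03 and 18.3. The rps-12 peak was shared with ska-3, whose start was nearer, at 129 bp.

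Lists of other housekeeping machines had between 6.45% and 27.8% of starts with a summit. Over all genes the share was 10.3% with a head-to-head start within 1000 bp and 2.70% without one. Without such a neighbour the counts were 10 of 34 for the respiratory chain and 4 of 34 for chaperones. They were 4 of 20 for translation factors and 3 of 15 for the vacuolar ATPase. The respiratory chain had 20 of 72, led by the cytochrome c oxidase subunits cox-5A at 282 bp (96.9, with 63.3 in replicate 1 and 34.1 in replicate 2) and cox-5B at 48 bp (81.9, with 41.97 and 37.7). The chaperone list, in which cdc-48.1 was included, had 17 of 64, of which 12 shared a divergent peak. It was led by cdc-48.1 and hsp-1, and it did not hold the chaperone gene enpl-1, with a divergent peak at 51 bp (41.6). Translation factors had 11 of 42, led by eef-1A.2 and iff-2. The vacuolar ATPase had 5 of 21, led by vha-12 at 414 bp (45.2) and unc-32 at 151 bp (43.4).

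The list of splicing factors had 7 of 57, led by prp-40 at 147 bp (50.1) and prp-8 at 332 bp (47.6). It did not hold the splicing genes syf-2 and rsr-1, which had stronger divergent peaks at 383 bp (63.97) and 448 bp (59.9). In both of these peaks the partner's start was nearer. The mitochondrial ribosome had 8 of 67, led by mrpl-45 at 324 bp (47.5) and mrpl-17 at 129 bp (45.7), and 6 of these 8 peaks were divergent. The proteasome had 3 of 33, led by rpn-3 at 188 bp (80.1) and pbs-5 at 260 bp downstream (43.7), the latter in the dense stretch of chromosome I. Aminoacyl-tRNA synthetases had 2 of 31. Among genes without a head-to-head start within 1000 bp, 1 of 27 splicing factor and 1 of 43 mitochondrial ribosome genes had a summit. For the proteasome it was 1 of 12 and for the synthetases 1 of 20.

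Of 34 pan-neuronal and synaptic genes 10 had a summit, 9 upstream of a single start, 1 downstream and none divergent. None of the 34 had a head-to-head start within 1000 bp, and 500 bp on each side cannot bridge a wider gap. The strongest were unc-104, a kinesin that carries synaptic vesicle precursors, at 92 bp (65.9, with 38.3 in replicate 1 and 32.3 in replicate 2), and syd-2, a liprin of the presynaptic zone, at 316 bp (65.0, with 39.9 and 25.3). Of 11 DREAM and retinoblastoma genes 5 had one, led by lin-54 and by lin-9 at 148 bp (64.9). Of these 5 peaks 3 were divergent, and the listed start was the nearest for 4 of 5. With a head-to-head start within 1000 bp 3 of 3 genes had a summit, and without one 2 of 8.

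Families of regulators were near the share of all genes. Homeobox genes had 4 of 89 (4.49%), led by ceh-38 at 42 bp downstream (75.03) and unc-42 at 198 bp (44.4). The ceh-38 peak also had the start of malt-1 within 500 bp. Nuclear hormone receptors had 8 of 269 (2.97%), led by nhr-1 at 345 bp (62.2) and nhr-28 at 64 bp downstream (53.4). The nhr-28 peak lay in the dense stretch of the X chromosome. Of 15 forkhead genes only daf-16, named here because its count was 1, had a summit, 435 bp upstream with a signal of 30.9, near the bottom of the list.

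Large families of environmental and tissue-specific genes had few. Chemoreceptors had 6 of 1365 (0.440%), led by sri-5 at 284 bp (59.9) and sru-26 at 489 bp downstream (38.5). F-box genes had 3 of 322 (0.932%), led by fbxb-85 at 55 bp (65.9) and fbxb-21 at 127 bp (39.6), and cuticle collagens had 3 of 175 (1.71%), led by col-38 at 429 bp (61.8) and col-71 at 304 bp (45.7). All 3 collagen peaks were divergent, and in none was the collagen start the nearer one. The col-38 peak was shared with rpl-5. The histone list had 1 of 80, the his-37 peak. It did not hold the histone variant gene htz-1, which had a divergent peak at 308 bp (63.4). None of 240 C-type lectin, 44 major sperm protein and 141 neuropeptide and insulin genes had a summit, and exact 95% upper limits were 1.53%, 8.04% and 2.58%.

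**Figure D5:**
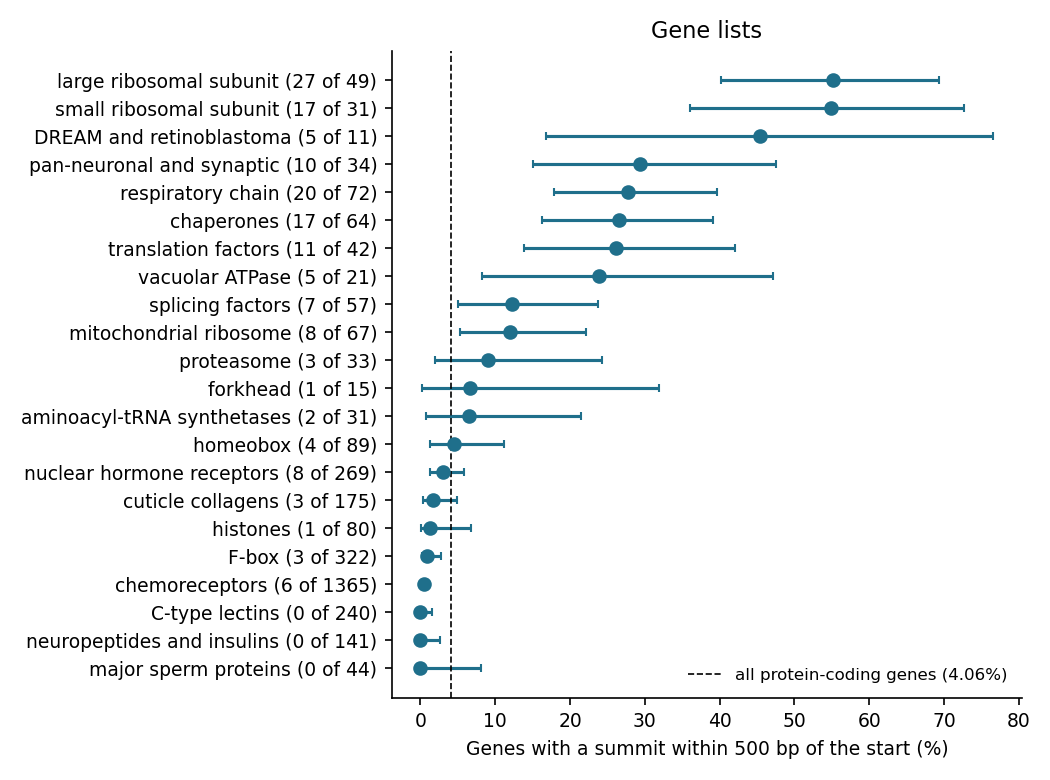
Percentage of genes in each list with a thresholded summit within 500 bp of the start (horizontal axis), with exact 95% intervals that cover counting error only, and a dashed line at the 4.06% of all protein-coding genes. The ribosomal lists stand near 55%, and the lists of chemoreceptors, F-box genes, lectins, sperm proteins and neuropeptides stand at or below 0.932%.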

How the data were processed

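Peak lists were deposited for 2 genome builds, ce11 and ce10, in the narrowPeak layout. The deposited signal column holds the value of the authors' caller, per the file headers and layout, on an unstated scale. Which aligner and caller were run, in which version and with which threshold of the irreproducible discovery rate (IDR), was not given in the sources used here. Lists on ce10 were not used. The summit was the peak start plus the deposited offset, written 1-based, and was compared with gene starts of Ensembl release 115 on WBcel235, whose chromosomes contain all ce11 coordinates. Sequence was read from the RefSeq WBcel235 genome.

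Every base was assigned to a class by the starts within 500 bp, and summit counts were compared with the bases of each class. Exact binomial and Fisher's exact tests (scipy 1.17.1, Python 3.11.15, pandas 2.3.3, numpy 2.4.6) were two-sided, with Benjamini-Hochberg adjustment within each family. The scripts were tested on simulated data. Intervals cover counting error only. Replicate coverage meant an overlap of 1 bp with the strongest 2005 regions of a replicate.

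Members, lists and motifs were chosen with earlier results of these data known. Genes named are those at the 15 strongest members, the 5 strongest divergent and the 5 strongest downstream peaks, the 2 strongest per list with 3 or more genes, the 3 nearest to a start, the 3 on each side of the 500 bp limit, fkh-10 and unc-119. Also named are htz-1, syf-2, rsr-1 and enpl-1, which had a summit but were not in the lists. Alternatives used each replicate alone, the stronger 50% of peaks, other windows, transcript starts, and lists without dense stretches (20 kb with 10 or more summits) or overlapping peaks.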

Additional observations from a re-analysis of the deposited data

How the results depend on the processing

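The upstream against downstream and divergent against single upstream ratios kept their direction and stayed past the threshold under every alternative run. The share of summits near a start, 32.2% at 500 bp, was 20.9% at 250 bp, 42.4% at 1000 bp and 36.8% with transcript starts. The lower coverage of members by both replicates (-5.12 points) was no longer past the threshold in the stronger 50% of peaks (-3.59), at 1000 bp (-4.01), with transcript starts (-2.75), with replicate summits within 100 bp (-2.25) or on the autosomes only (-4.62). It reversed to 1.01 with the strongest 4000 regions of each replicate, and the cause was not tested. The number of motifs past the threshold, 2 of 12, was between 1 and 4 when 1 replicate was left out (4 without replicate 2, 1 without replicate 1). It was 1 in the stronger 50% of peaks, 1 at 250 bp, 1 in windows of 25 bp on each side and 7 in windows of 100 bp (a form of the forkhead core, ATAAACA, among them), where TTTCAG reversed to a difference of 6.40 points in favour of members. In those wide windows 1 motif also passed for orientation, AAGAAGA, read in the direction of the gene in 31.9% of windows (exact binomial test, adjusted p = 0.00776).

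No paired analysis was possible because both libraries belong to 1 group. With 2 libraries and unknown depth, the spread between animals could not be estimated.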
